A study of Mus musculus with 18 samples.

Results

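The comparison described here is that of AML12 hepatocytes treated with recombinant mouse serum albumin (rMSA) against AML12 hepatocytes treated with vehicle, with no insulin added on either side. A gene was a member if its TPM averaged 1 or more across the 3 vehicle and the 3 rMSA libraries, which held for 10885 of the 15579 genes in the AML12 table. TPM (transcripts per 1000000) is the share of a gene among all transcripts of a library, corrected for transcript length. The series holds 18 libraries in all, of which 12 are AML12 libraries and 6 of these enter this comparison. AML12 is a mouse hepatocyte line, labelled WT, and all 6 libraries come from this 1 line. As background, it was established from a mouse carrying a transgene for human TGF-α, a ligand of the EGF receptor, so both groups share that origin. It was maintained with fetal bovine serum, insulin, transferrin, selenium and dexamethasone. Before treatment, all cells of both groups were deprived of serum overnight, and then rMSA at 600 μM or vehicle was given for 24 h. What the vehicle contained is not given in the sources used here. Nothing in the labels states whether the 3 libraries of a group are separate cultures, so every p-value measures only the spread between these libraries. Values written with ± are the mean and SD of the 3 libraries of a group (n = 3).

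Albumin is the most abundant protein of plasma. Hepatocytes make and secrete it, and it carries fatty acids, hormones and metals. In the liver, the acute phase response is the change in secreted proteins that follows inflammation, driven largely by IL-6 through STAT3 and by IL-1 and TNF through NF-κB, with C/EBP factors acting at many of the same promoters. The EGF receptor signals through ERK and through PI3K and AKT, and the study asked whether albumin raises hepatic glycolysis through this receptor.

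Reads per gene cannot be had from TPM, which leaves the sequencing depth unknown, and intervals for counting error are therefore not shown. The first principal component of log2(TPM + 1) held 67.4% of the variance, with vehicle libraries at −21.2 to −15.5 and rMSA libraries at 13.2 to 22.3. Library rMSA 3 was the nearest of its group to vehicle on this component and stood at −17.6 on the second one, which held 21.5%. Genes of cytosolic ribosomal proteins took 26.7% to 28.0% of all TPM with vehicle and 22.1% to 25.3% with rMSA (means of 27.5% and 23.6%, exact two-sided permutation p = 0.1, the smallest that 3 against 3 libraries allow). Because TPM is a share, such a difference in abundant transcripts enters the values of all other genes, and its part in each change was not tested.

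Treatment with rMSA was followed by more genes with higher than with lower mRNA levels. A gene was called at a Benjamini-Hochberg adjusted p under 0.05 by limma on log2(TPM + 1) and a log2 fold change of at least 1 in either direction. By this rule 177 genes were higher with rMSA (1.63% of those tested) and 34 were lower (0.312%), and for all 211 the 3 rMSA libraries lay on one side of the 3 vehicle libraries. Libraries did not overlap in the higher direction for 25.4% of all genes and in the lower direction for 14.1%. The largest rises and falls named below were chosen among genes without overlap. For them the lack of overlap is part of the choice and adds no support. At the adjusted p alone, 1837 genes rose (16.9%) and 802 fell (7.37%). Those counts were 3606 and 1718 with the replicate number as a term. The share of rises was 69.6% without that term, and it was 53.1% after median centring, 46.4% after quantile normalization and 55.7% after rescaling without the 50 highest genes. In these 3 scalings 1566 genes rose and 1382 fell, 1565 rose and 1811 fell, and 1571 rose and 1249 fell. List counts given below for a setting are to be read beside its counts over all 10885 genes. The median log2 fold change over all genes was 0.06. Of the genes called higher, 94 had a vehicle mean under 5 TPM and 25 had one of at least 50 TPM, and the log2 fold change was at least 2 for 28 and under 1.5 for 114. Among the members, 158 had a vehicle mean under 1 TPM and thus entered through the rMSA libraries, and 34 of these were called higher. Csf3, Mrc1, Mcpt8, Fabp4, Tnip3, Socs1, Stab1 and Aldh3a1, named below, are among the 158. The filter let them in only through the group where they are high. Another 50 had an rMSA mean under 1 TPM and entered through the vehicle libraries. Of these, 4 were called lower, Agt, Ifit3 and Csf1r among them.

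**Figure D1:**
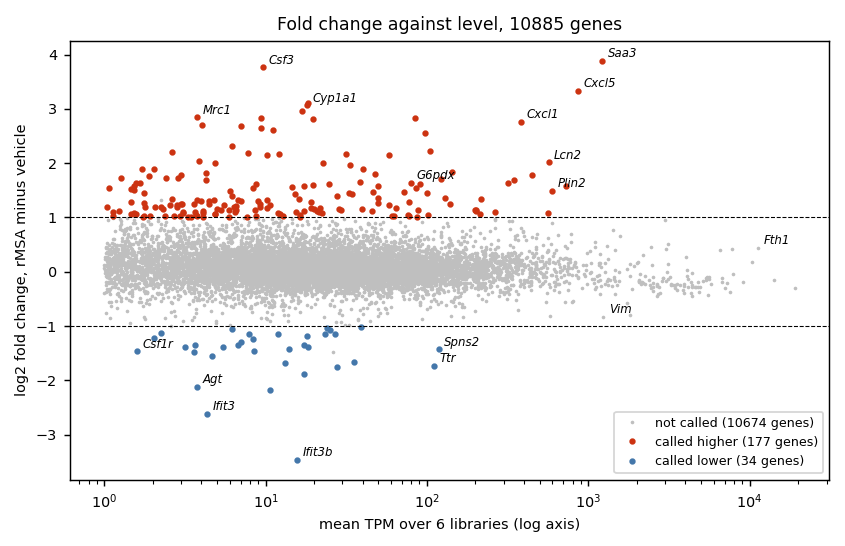
Log2 fold change (rMSA minus vehicle, on the log2(TPM + 1) scale) of each of the 10885 genes against its mean TPM over the 6 libraries (log axis), with dashed lines at a fold change of 1 and −1. The 177 genes called higher (red) include abundant ones (Saa3, Cxcl5, Lcn2, Plin2), and 25 of them and 4 of the 34 called lower (blue) had a vehicle mean of at least 50 TPM.

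Chemokines of the CXC group, which attract neutrophils, were among the strongest rises. Cxcl5 stood at 170.2, 158 and 139 TPM in vehicle libraries 1 to 3 and at 1759.6, 1634 and 1342 TPM in rMSA libraries 1 to 3. For Cxcl1 the values were 93.3, 95.6 and 105 TPM with vehicle and 679.6, 691 and 636 TPM with rMSA. Cxcl3 was at 19.4, 21.2 and 18.8 TPM with vehicle and at 163, 151 and 130.4 TPM with rMSA. In these 3 genes each rMSA library was several times above each vehicle library, and rMSA 3 was the lowest rMSA library. Cxcl2 was rarer and rose from 1.38 ± 0.195 to 10.9 ± 1.32 TPM. The log2 fold changes were 3.33 (SE 0.10) for Cxcl5, 2.76 (SE 0.06) for Cxcl1, 2.84 (SE 0.09) for Cxcl3 and 2.32 (SE 0.12) for Cxcl2. Their limma adjusted p were 1.25e-07, 2.08e-08, 1.25e-07 and 2.68e-06. Among chemokines that attract monocytes, Ccl7 rose from 9.28 ± 0.215 to 30.3 ± 2.17 TPM (limma adjusted p = 2.92e-06). Ccl2 was the most abundant chemokine and, chosen here after its values were seen, rose from 2049.6 ± 100.3 to 3971 ± 119 TPM (log2 fold change 0.95, limma adjusted p = 4.57e-06). Cxcl17, a chemokine of mucosal epithelia, went the other way: 60.3, 51.9 and 50.7 TPM with vehicle and 17.2, 13.7 and 18.7 TPM with rMSA, without overlap (log2 fold change −1.67, limma adjusted p = 1.67e-05). Of 15 chemokine ligands tested, 10 rose, 2 fell and 3 did not pass, with a median log2 fold change of 0.70.

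**Figure D2:**
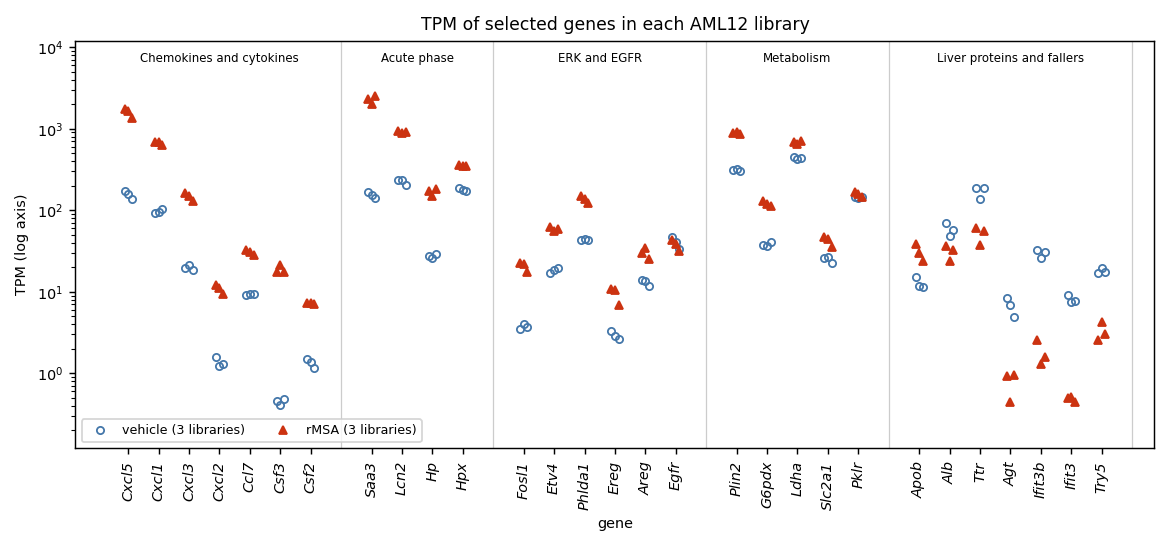
TPM (log axis) of genes named in the text in each of the 3 vehicle libraries (open circles) and the 3 rMSA libraries (filled triangles), grouped by role. Groups do not overlap for the 7 chemokines and cytokines and for Saa3, Lcn2, Hp and Hpx, which are higher with rMSA, while Egfr and Pklr overlap and Alb, Ttr, Agt, Ifit3b, Ifit3 and Try5 are lower with rMSA.

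The 4 CXC genes lie together on chromosome 5, Cxcl5 at chr5:90759298-90761625, Cxcl3 at chr5:90786101-90788093, Cxcl1 at chr5:90891245-90893121 and Cxcl2 at chr5:90903899-90905938 (RefSeq, GRCm38.p6). The 250 bases before the RefSeq start of 3 of them are shown, 5′ to 3′ on the gene's strand, because they share the same 9-letter match to an NF-κB site, together with the start of Ier3, which holds that match and a second one, and with Saa3 and Ptgs2, which hold a match to a C/EBP site. Capitals mark the matches (GGANTTNCC for κB in the first 4 and TTNNGCAA for C/EBP in the last 2, searched on both strands). Cxcl5 had no entry among the promoter windows. The windows are chr5:90890995-90891244 (plus strand) for Cxcl1, chr5:90903649-90903898 (plus) for Cxcl2, chr5:90785851-90786100 (plus) for Cxcl3, chr17:35821463-35821712 (plus) for Ier3, chr7:46715677-46715926 (minus) for Saa3 and chr1:150099781-150100030 (plus) for Ptgs2. For Saa3 the transcript start used lies inside the RefSeq span of the gene (chr7:46711998-46719615).
Cxcl1: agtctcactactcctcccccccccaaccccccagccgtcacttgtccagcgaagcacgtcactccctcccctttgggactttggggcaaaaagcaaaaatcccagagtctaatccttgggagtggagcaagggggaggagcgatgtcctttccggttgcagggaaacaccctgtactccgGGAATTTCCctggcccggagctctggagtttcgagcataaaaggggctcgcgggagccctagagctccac
Cxcl2: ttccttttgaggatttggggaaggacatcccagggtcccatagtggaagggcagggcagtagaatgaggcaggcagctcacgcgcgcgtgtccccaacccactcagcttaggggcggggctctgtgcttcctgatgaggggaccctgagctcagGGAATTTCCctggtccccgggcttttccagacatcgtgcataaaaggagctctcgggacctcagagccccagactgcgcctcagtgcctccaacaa
Cxcl3: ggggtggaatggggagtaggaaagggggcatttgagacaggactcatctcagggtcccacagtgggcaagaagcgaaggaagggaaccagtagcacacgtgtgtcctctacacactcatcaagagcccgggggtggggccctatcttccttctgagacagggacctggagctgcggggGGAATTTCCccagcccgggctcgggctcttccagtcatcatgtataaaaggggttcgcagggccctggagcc
Ier3: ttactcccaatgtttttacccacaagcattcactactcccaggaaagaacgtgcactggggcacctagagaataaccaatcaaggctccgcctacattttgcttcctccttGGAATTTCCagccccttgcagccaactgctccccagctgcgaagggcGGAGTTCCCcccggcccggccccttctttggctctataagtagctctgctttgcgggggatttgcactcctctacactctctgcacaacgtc
Saa3: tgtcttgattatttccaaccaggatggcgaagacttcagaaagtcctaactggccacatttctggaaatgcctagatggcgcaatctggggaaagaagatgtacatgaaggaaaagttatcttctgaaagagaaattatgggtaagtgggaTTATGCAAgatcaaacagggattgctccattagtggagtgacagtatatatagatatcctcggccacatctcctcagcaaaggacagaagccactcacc
Ptgs2: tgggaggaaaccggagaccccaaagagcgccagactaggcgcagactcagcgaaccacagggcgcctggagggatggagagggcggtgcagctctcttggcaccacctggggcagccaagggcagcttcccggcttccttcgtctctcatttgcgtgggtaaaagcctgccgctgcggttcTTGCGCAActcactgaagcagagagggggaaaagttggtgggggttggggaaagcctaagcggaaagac

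The letters GGAATTTCC stood 70 bases before the start of Cxcl1, 72 before that of Cxcl3, 96 before that of Cxcl2 and 139 before that of Ier3. RefSeq promoter windows (250 bases before to 50 after a start) were at hand for 8799 of the 10885 genes, 129 of those called higher and 25 of those called lower. The κB letters were in 3.91% of all these windows, in 15 of the 129 (11.6%) and in 1 of the 25. The C/EBP letters were in 8.16% of all windows, in 27 of the 129 (20.9%) and in 6 of the 25. The letters TGANTCA of an AP-1 site were in 4.73% of all windows, in 14 of the 129 and in 7 of the 25, and those of an interferon-stimulated response element (ISRE) in 2.75%, in 6 and in 4. The 5 letters GCGTG, the core bound by the aryl hydrocarbon receptor, were in 52.9% of all windows, in 51 of the 129 and in 7 of the 25. These shares describe letters within the windows and not binding.

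Growth factors and cytokines that act on granulocytes and macrophages rose with the chemokines. Csf3, which drives neutrophil production, was at 0.460, 0.410 and 0.480 TPM with vehicle and at 17.6, 21.5 and 17.3 TPM with rMSA. Csf2, which drives granulocyte and macrophage growth, was at 1.49, 1.37 and 1.16 TPM with vehicle and at 7.33, 7.24 and 7.05 TPM with rMSA. The groups were far apart in both genes (log2 fold changes 3.76 and 1.81, limma adjusted p = 1.25e-07 and 4.70e-06). The first value understates the ratio because the vehicle level of Csf3 is below the 1 TPM added. Csf3 entered the test only through the rMSA libraries, so its separation is no independent support. The more abundant Csf1 rose from 132 ± 5.81 to 189 ± 15.8 TPM and the alarmin Il33 by 0.97 on the log2 scale, while Clcf1, a member of the IL-6 family, fell from 67.7 ± 3.30 to 42.4 ± 3.05 TPM. Of 9 interleukin, IL-6 family and colony-stimulating factor genes tested, 7 rose and 1 fell (median log2 fold change 0.60).

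Among receptors and feedback genes of the same pathways, some rose and many did not pass. Zc3h12a, an RNase that degrades inflammatory mRNAs, had a log2 fold change of 1.43, and Nfkbiz and Nfkbia, both inhibitor-of-κB family members, had values of 1.16 and 0.48. Tnip3, an inhibitor of NF-κB signaling, rose from 0.593 ± 0.0839 to 2.32 ± 0.181 TPM, and Ikbke, a kinase of innate immunity, from 64.1 ± 0.545 to 122 ± 6.95 TPM. The limma adjusted p of these 5 genes lay between 4.62e-06 and 0.001. Of 27 genes of NF-κB subunits and feedback inhibitors, 14 rose and 2 fell (median 0.30; 16 and 5 with the replicate number as a term, 14 and 5 after quantile normalization). In the TNF superfamily 9 of 14 rose and 0 fell (median 0.47), among them Tnfrsf9 with values of 24.5, 23.8 and 23.9 TPM with vehicle and 69.9, 71.6 and 63.3 TPM with rMSA, and the death receptor Fas, with a log2 fold change of 1.11. Of 24 cytokine receptors and STAT3 feedback genes 11 rose and 1 fell (14 and 3 with the replicate term, 10 and 3 after quantile normalization), including the feedback inhibitors Socs3 (0.65) and Socs1 (0.98). Of 20 Toll-like receptor and other pattern recognition genes 5 rose and 0 fell (10 and 1 with the replicate term, 4 and 1 after quantile normalization). In that list the endotoxin co-receptor Cd14 rose from 181 ± 5.33 to 352 ± 20.7 TPM, and Irak3, which dampens Toll-like receptor signaling, from 2.87 ± 0.0702 to 8.13 ± 1.32 TPM.

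Of 11 acute phase genes tested 8 rose, 1 fell (Agt) and 2 did not pass, with a median log2 fold change of 1.27. Lcn2, an iron-siderophore binding protein, was at 233, 235 and 207 TPM with vehicle and at 940.5, 888 and 913 TPM with rMSA. Hp, the haemoglobin-binding haptoglobin, was at 27.6, 26.4 and 28.7 TPM with vehicle and at 173, 148 and 181 TPM with rMSA. Hpx, the haem-binding hemopexin, was at 187, 178 and 171 TPM with vehicle and at 361, 345 and 352 TPM with rMSA. All 3 genes had every rMSA library above every vehicle library, with log2 fold changes of 2.02, 2.55 and 0.98 (SE 0.06, 0.08 and 0.05; limma adjusted p = 1.25e-07, 1.25e-07 and 2.85e-06). The serum amyloid gene Saa3 had the largest log2 fold change on the log2(TPM + 1) scale, 3.89 (SE 0.09), from a vehicle mean of 153 TPM. By the ratio of mean TPM it was at 14.9, below rarer genes such as Csf3 (41.8) and Mrc1 (45.0), whose change the added 1 TPM compresses. Agt, the precursor of angiotensin, was at 8.43, 6.87 and 4.98 TPM with vehicle and at 0.920, 0.440 and 0.960 TPM with rMSA, without overlap (log2 fold change −2.12, SE 0.19, limma adjusted p = 6.47e-05). The summed TPM of the list lay between 1778 and 2025 with vehicle and between 5372 and 6004 with rMSA. Of 21 complement and coagulation genes 11 rose and 2 fell (median 0.32; 10 and 5 after quantile normalization). C3, the central complement protein, rose from 276 ± 7.10 to 445 ± 31.4 TPM and Cfb, complement factor B, from 184 ± 7.32 to 309.5 ± 17.1 TPM. The plasminogen activator Plat rose from 18.1 ± 1.75 to 40.9 ± 5.10 TPM (log2 fold change 1.13).

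Interferon-stimulated genes moved in both directions. Ifit3b was at 32.5, 25.9 and 30.4 TPM with vehicle and at 2.55, 1.32 and 1.57 TPM with rMSA. Ifit3, its neighbour on chromosome 19, was at 9.25, 7.59 and 7.68 TPM with vehicle and at 0.440 to 0.520 TPM with rMSA. They were the 2 largest falls of all (log2 fold changes −3.46 and −2.62, limma adjusted p = 1.49e-06 and 9.17e-07), but the copies are near-identical and the counting could split their reads. Oasl1, an oligoadenylate synthetase-like gene, rose from 1.62 ± 0.339 to 4.30 ± 0.216 TPM and Usp18, which removes ISG15 from proteins, by 0.71 on the log2 scale. Of 24 interferon-stimulated genes 8 rose and 5 fell (median 0.19; 13 and 6 with the replicate term, 6 and 6 after median centring, 5 and 7 after quantile normalization). Of 14 genes of MHC class I antigen presentation 3 rose and 0 fell (8 and 1 with the replicate term), and H2-D1, a class I heavy chain, was at 176, 182 and 178 TPM with vehicle and at 273, 279 and 278 TPM with rMSA. The 3 that rose were 21.4% of the MHC class I list, against 16.9% over all genes.

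The receptor that the study asked about, Egfr, was at 47.5, 41.2 and 34.0 TPM with vehicle and at 43.1, 38.6 and 31.4 TPM with rMSA. The groups overlapped, and the log2 fold change was −0.11 (SE 0.14, limma adjusted p = 0.6). Within the 3 same-numbered pairs, a pairing that the labels do not state, it was lower with rMSA in 3. With the replicate term the limma adjusted p was 0.0969. After removal of the trend with transcript length it passed (log2 fold change −0.18, limma adjusted p = 0.0384). Without library rMSA 3 the log2 fold change of Egfr changed sign. Its partner Erbb2 also overlapped between the groups (23.5 ± 0.646 and 24.0 ± 1.14 TPM, log2 fold change 0.03), and Erbb3 rose from 1.38 ± 0.157 to 3.07 ± 0.295 TPM. The EGFR ligand amphiregulin (Areg) was at 14.1, 13.7 and 11.7 TPM with vehicle and at 29.8, 34.2 and 25.1 TPM with rMSA, and the ligand epiregulin (Ereg) was at 3.30, 2.87 and 2.64 TPM with vehicle and at 10.9, 10.5 and 6.93 TPM with rMSA. Each rMSA library was above each vehicle library for both ligands (log2 fold changes 1.11 and 1.39, limma adjusted p = 2.34e-04 and 3.36e-04). Lrig1, a negative regulator of EGF receptors, rose from 14.8 ± 0.933 to 40.8 ± 4.44 TPM, and the ErbB ligand Nrg1 fell from 61.7 ± 5.07 to 44.9 ± 3.98 TPM. Of 18 EGFR family genes tested 7 rose, 1 fell and 10 did not pass (9 and 2 with the replicate term).

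Genes that respond to ERK signaling did not move as 1 block. Fosl1, an AP-1 subunit, was at 3.52, 3.98 and 3.75 TPM with vehicle and at 22.5, 21.8 and 17.5 TPM with rMSA (log2 fold change 2.18, SE 0.12). Etv4, an ETS factor, was at 16.9, 18.4 and 19.5 TPM with vehicle and at 61.8, 56.5 and 59.6 TPM with rMSA (1.65, SE 0.08). Phlda1 was at 43.4, 45.1 and 42.8 TPM with vehicle and at 149.5, 139 and 124 TPM with rMSA (1.63, SE 0.07). All 3 passed the test at limma adjusted p of at most 2.85e-06 and showed no overlap. Etv5, the ETS factor closest to Etv4 and chosen here after its values were seen, rose from 1.96 ± 0.184 to 5.39 ± 1.13 TPM. Several immediate early genes fell instead. Atf3, a stress-induced factor, was at 33.1, 37.7 and 32.3 TPM with vehicle and at 15.5, 17.1 and 14.7 TPM with rMSA (log2 fold change −1.08, SE 0.09). The immediate early factors Egr1 and Jun, also chosen after their values were seen, fell by 1.39 and 0.85 on the log2 scale, from means of 5.02 and 13.2 TPM. In the whole list of 29 ERK feedback, ETV and immediate early genes 14 rose, 6 fell and 9 did not pass (16 and 9 with the replicate term).

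Few genes of the insulin receptor, PI3K, AKT and FOXO1 list passed the test. Of 32 tested, 3 rose (9.38%) and 1 fell, with a median log2 fold change of 0.02 that turned to between −0.05 and −0.03 under the other scalings and after removal of the trend with transcript length. With the replicate number as a term 7 rose and 5 fell, and after median centring 2 rose and 3 fell. For Insr, the insulin receptor, the log2 fold change was −0.04, and for its substrates Irs1 and Irs2 it was −0.06 and −0.22 (limma adjusted p = 0.885, 0.734 and 0.3). For Irs2 the fall passed only with the replicate term and after removal of the length trend. Akt1 was at 136, 137 and 137 TPM with vehicle and at 157, 156 and 139.9 TPM with rMSA, which did not overlap but did not pass the test (log2 fold change 0.14, limma adjusted p = 0.124), although it passed with the replicate term and without library rMSA 3. Akt2 (0.04), Foxo1 (0.12) and Gsk3b (−0.12) did not pass. The genes that rose were Pik3r2 and Pik3r3, regulatory subunits of PI3K (0.29 and 0.74), and Igfbp3, an IGF-binding protein, at 5.52 ± 0.725 TPM with vehicle and 11.7 ± 0.809 TPM with rMSA. The one that fell was Igfbp4, an inhibitor of IGF action, at 845, 829 and 894 TPM with vehicle and 592, 571 and 585 TPM with rMSA. All these values are mRNA levels. The paper's evidence on EGFR and AKT activation is mainly phosphorylation of the proteins, which mRNA does not measure. The paper also reports PI3K-AKT signaling among pathways enriched in its differentially expressed genes of AML12 cells.

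Along glycolysis 12 of 24 genes rose, 2 fell and 10 did not pass, with a median log2 fold change of 0.21 (13 rose and 4 fell with the replicate term, and 7 rose and 4 fell after median centring, 10 and 5 after quantile normalization). At the entry, the glucose transporter Slc2a1 was at 26.1, 26.7 and 22.6 TPM with vehicle and at 46.9, 44.7 and 35.7 TPM with rMSA (log2 fold change 0.73, SE 0.11, limma adjusted p = 0.00148). The hexokinase Hk1 rose by 0.22 on the log2 scale (SE 0.05, limma adjusted p = 0.0185), a call that was lost after median centring, in the fit of all 12 libraries, after removal of the length trend and without vehicle libraries 1 or 2 or rMSA libraries 1 or 2. Slc2a2, the transporter of adult liver, and Hk2 were below the filter. At the committed step the muscle-type and platelet-type phosphofructokinases Pfkm and Pfkp rose (0.51 and 0.64), and the liver-type Pfkl was at 62.9 ± 0.456 and 61.9 ± 1.25 TPM (−0.02, limma adjusted p = 0.808). The isomerase Gpi1 (−0.04) also did not pass. Gpi1, Pfkp, Pgam1 and Eno2 are named for their place in the pathway and were chosen after their values were seen.

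In the later steps of the pathway Gapdh was at 5466, 5644 and 5875 TPM with vehicle and at 7261, 7551 and 7732 TPM with rMSA. The mutase Pgam1 rose from 622 ± 35.0 to 849 ± 49.9 TPM and the enolase Eno3 from 44.5 ± 3.15 to 74.3 ± 3.07 TPM, whereas the enolase Eno2 fell from 15.2 ± 0.354 to 11.2 ± 1.24 TPM. The pyruvate kinase Pkm rose from 2058 ± 90.6 to 2839 ± 47.4 TPM (log2 fold change 0.46, limma adjusted p = 2.53e-04). The liver isozyme Pklr was at 145, 142 and 147 TPM with vehicle and at 169, 157 and 144 TPM with rMSA, so that rMSA 3 fell among the vehicle libraries (0.11, SE 0.06, limma adjusted p = 0.266), and it passed without rMSA 3. Ldha, which makes lactate, was at 454, 423 and 442 TPM with vehicle and at 694, 649 and 702 TPM with rMSA (0.63, SE 0.05, limma adjusted p = 4.87e-05). No gene of the list reached a log2 fold change of 1.

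**Figure D3:**
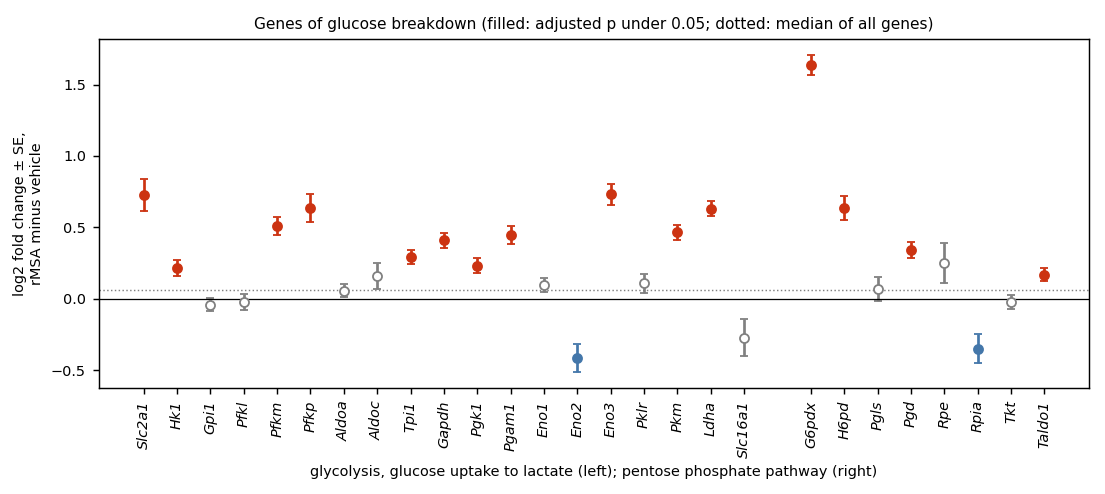
Log2 fold change (rMSA minus vehicle) with its SE for tested genes of glucose uptake, glycolysis and lactate export in order of the steps, and of the pentose phosphate pathway. Filled points have an adjusted p under 0.05, red higher and blue lower, open points did not pass, and the dotted line is the median over all genes (0.06), above which G6pdx stands at 1.64 and Ldha at 0.63.

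G6pdx, glucose-6-phosphate dehydrogenase, which supplies NADPH, was at 37.5, 36.7 and 40.3 TPM with vehicle and at 128, 121 and 113 TPM with rMSA (log2 fold change 1.64, SE 0.07, limma adjusted p = 8.34e-07), with no overlap. The microsomal form H6pd and the second dehydrogenase Pgd rose by 0.63 and 0.34 on the log2 scale (limma adjusted p = 7.55e-04 and 0.00235). Of 17 pentose phosphate and glycogen genes 5 rose and 3 fell (9 and 3 with the replicate term, 4 and 5 after quantile normalization). Of 15 genes of gluconeogenesis and amino acid breakdown 3 rose and 0 fell (7 and 2, and 2 and 2 under each of the 3 other scalings), and of 31 genes of pyruvate dehydrogenase and the citric acid cycle 6 rose and 2 fell (12 and 7, 4 and 6 after median centring, 6 and 8 after quantile normalization), with a median of 0.05 that was −0.01 after median centring. Among 77 respiratory chain and ATP synthase subunits 16 rose and 2 fell (37 and 7 with the replicate term), but 1 rose and 2 fell after median centring, 8 and 11 after quantile normalization, and 6 and 7 after rescaling without the 50 highest genes.

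Of 14 genes of lipid droplets, lipolysis and fatty acid carriage 7 rose, 1 fell and 6 did not pass (median log2 fold change 0.34). Plin2, the protein that coats droplets in hepatocytes, was at 313, 317 and 306 TPM with vehicle and at 879.6, 913 and 852 TPM with rMSA (log2 fold change 1.49, SE 0.05, limma adjusted p = 1.33e-07). Hilpda, an inhibitor of triglyceride breakdown, was at 30.2, 29.9 and 27.0 TPM with vehicle and at 67.0, 75.1 and 70.6 TPM with rMSA (1.26, SE 0.07). Both groups of libraries were tight and far apart. Fabp4, a fatty acid-binding protein, rose from 0.263 ± 0.125 to 2.65 ± 0.464 TPM. Of 28 genes of fatty acid oxidation and ketone bodies 9 rose and 0 fell (12 and 1 with the replicate term, 8 and 2 after quantile normalization), among them Cpt1a, which admits fatty acids to mitochondria, from 143 ± 10.5 to 226 ± 19.7 TPM. Genes of fatty acid synthesis, desaturation and elongation split, with 6 of 25 rising and 4 falling (8 and 7 with the replicate term) and a median of 0.00 that was −0.06 after median centring. Srebf1, the master factor of this pathway, fell from 135 ± 7.79 to 92.5 ± 8.45 TPM and the desaturase Fads2 from 419 ± 15.2 to 294 ± 29.9 TPM. In cholesterol synthesis and uptake 3 of 27 rose and 3 fell (8 and 7 with the replicate term, 3 and 6 after quantile normalization; median −0.07), and Fdps, farnesyl diphosphate synthase, was at 914, 947 and 981 TPM with vehicle and at 638, 638 and 662 TPM with rMSA.

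Genes of xenobiotic and oxidant defence rose in many cases. Cyp1a1, the classical target of the aryl hydrocarbon receptor, was at 3.49, 2.56 and 3.18 TPM with vehicle and at 37.3, 32.2 and 29.9 TPM with rMSA (log2 fold change 3.07, SE 0.12, limma adjusted p = 5.61e-07). Tiparp and Aldh3a1, further targets, rose by 0.86 and 0.84 on the log2 scale, and 7 of the 11 genes of this list rose and 1 fell (median 0.60). Of 34 NRF2 targets and peroxide defence genes 18 rose and 4 fell (median 0.22). The glutathione transferases did not go one way: Gsta4 rose from 359 ± 19.3 to 762 ± 13.4 TPM and Gstp1 from 1214 ± 58.6 to 1918 ± 126 TPM, whereas Gsta3 fell from 25.4 ± 1.68 to 10.6 ± 0.131 TPM. The mitochondrial superoxide dismutase Sod2 rose from 35.6 ± 0.173 to 66.3 ± 1.30 TPM. Slc7a11, the cystine importer, was at 5.80, 5.40 and 4.63 TPM with vehicle and at 17.8, 18.2 and 9.68 TPM with rMSA, where rMSA 3 was well below the other 2 rMSA libraries but above all vehicle libraries. Of 22 genes of metallothioneins, iron and copper handling 10 rose and 0 fell (12 and 4 with the replicate term, 9 and 2 after quantile normalization). Fth1, the ferritin heavy chain and one of the most abundant mRNAs, was at 9151, 9305 and 10270.2 TPM with vehicle and at 13203, 13492 and 12395 TPM with rMSA (0.45, limma adjusted p = 0.00125), while the light chain Ftl1 did not pass (−0.16, limma adjusted p = 0.0891). The Fth1 call was lost after median centring and after quantile normalization, and the Ftl1 fall passed with the replicate term.

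Chaperones of the endoplasmic reticulum rose in 15 of 26 cases and fell in 0 (median 0.33). Sdf2l1, a chaperone cofactor, rose from 15.8 ± 0.390 to 26.2 ± 0.770 TPM, Manf from 160.3 ± 9.49 to 238 ± 3.49 TPM and the chaperone BiP (Hspa5) from 197 ± 0.857 to 247 ± 15.8 TPM. The apoptosis-linked factor of the integrated stress response, Ddit3 (CHOP), moved the other way, with 106, 140.0 and 115 TPM with vehicle and 62.5, 77.5 and 56.0 TPM with rMSA (log2 fold change −0.87, SE 0.13, limma adjusted p = 0.0013). In that list of 28 genes 7 rose and 4 fell (13 and 8 with the replicate term, 5 and 5 after median centring, 4 and 7 after quantile normalization). Of 17 amino acid transporters 5 rose and 1 fell (9 and 1). Ptgs2, the inducible cyclooxygenase, was at 1.26, 1.35 and 0.780 TPM with vehicle and at 15.6, 14.3 and 9.09 TPM with rMSA (log2 fold change 2.69, SE 0.19, limma adjusted p = 1.83e-05). The prostaglandin D synthase Ptgds fell from 416 ± 24.5 to 315 ± 17.6 TPM and the prostaglandin transporter Slco2a1 fell by 0.66 on the log2 scale, so that 4 of the 14 prostaglandin and leukotriene genes rose and 3 fell (9 and 3 with the replicate term, 2 and 3 after quantile normalization).

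Secreted liver proteins moved in both directions. Ttr, the carrier of thyroxine and retinol-binding protein, was at 185, 138 and 189.9 TPM with vehicle and at 60.2, 37.3 and 56.1 TPM with rMSA. Alb, which encodes albumin itself, was at 69.2, 48.2 and 57.3 TPM with vehicle and at 36.9, 23.6 and 32.3 TPM with rMSA. Library 2 was the lowest of its group for both genes in both groups, and the groups did not overlap (log2 fold changes −1.73 and −0.90, SE 0.18 and 0.17, limma adjusted p = 1.61e-04 and 0.00422). The antitrypsin copies Serpina1b and Serpina1d fell by 1.89 and 1.75 on the log2 scale, and as near-identical neighbours on chromosome 12 they may share reads. Apob, the structural protein of secreted lipoproteins, was at 15.0, 11.8 and 11.6 TPM with vehicle and at 38.3, 29.9 and 23.9 TPM with rMSA (1.18, SE 0.16). Transferrin (Trf) rose from 595 ± 29.4 to 833 ± 85.5 TPM. Of 12 serpins 3 rose and 2 fell (6 and 5 with the replicate term, 3 and 5 after median centring), with a median of 0.08 that was −0.04 after quantile normalization. Of 11 apolipoprotein and lipoprotein assembly genes 2 rose and 0 fell (6 and 2, and 2 and 1 after quantile normalization), and of 18 hepatocyte transcription factors 4 rose and 0 fell (7 and 2, and 4 and 1 under each of the 3 other scalings), with a median of 0.10 that was −0.00 after quantile normalization. The shares that rose, 18.2% of the apolipoprotein list and 22.2% of the transcription factors, stood beside 16.9% over all genes.

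Markers of the labelled cell type were present in part. Krt18 (1911 and 2175 TPM), Krt8 (1206 and 1345 TPM), Hnf4a (108 and 121 TPM), Trf and Ttr were well above 1 TPM in both groups, but Cps1 and Cyp7a1 were listed at 0 in all 6 libraries and Fga, Fgb, Tat and Cyp2e1 were under 1 TPM. Of the 10 hepatocyte markers tested 5 rose and 2 fell (3 and 2 after median centring), and the rises of Krt8, Krt18 and Afp each lost the test in some alternatives. The biliary keratins Krt19 and Krt7 were present too (1316 and 262 TPM with vehicle), and of 7 cholangiocyte markers 1 rose (Spp1) and 1 fell (Krt19; 1 and 2 with the replicate term, 1 and 3 after quantile normalization). Of the 10 leukocyte markers in the table, 2 passed the filter. Cd68 rose from 4.64 ± 0.566 to 7.65 ± 0.447 TPM, and Csf1r, the receptor that defines macrophages, fell from 2.80 ± 0.166 to 0.377 ± 0.0351 TPM. The summed TPM of the 10 was between 7.56 and 9.13 with vehicle and between 9.15 and 10.3 with rMSA, and Ptprc, which marks all leukocytes, was at 0 with vehicle and averaged 0.0333 TPM with rMSA. Of 4 endothelial markers only Eng passed the filter, and it rose from 1.37 ± 0.304 to 2.62 ± 0.358 TPM, a call lost after quantile normalization. Of 7 stellate cell and fibroblast markers only Vim passed, and it fell from 1593 ± 66.7 to 894 ± 34.9 TPM (log2 fold change −0.83, limma adjusted p = 8.65e-06), with Dcn and Lum listed at 0.

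Several strongly raised genes are better known from myeloid cells. Mrc1, the macrophage mannose receptor, was at 0.180, 0.140 and 0.170 TPM with vehicle and at 7.63, 7.52 and 6.92 TPM with rMSA (log2 fold change 2.84, SE 0.10, limma adjusted p = 3.17e-07). Mcpt8, a protease of basophils, was at 0.310 to 0.350 TPM with vehicle and at 7.36, 8.82 and 6.96 TPM with rMSA (2.71, SE 0.12). The paired immunoglobulin-like receptor Pilra was at 4.72, 3.68 and 3.91 TPM with vehicle and at 37.0, 33.0 and 35.0 TPM with rMSA (2.82, SE 0.10). The groups were far apart in each of the 3 genes. Mrc1 and Mcpt8 averaged under 1 TPM with vehicle and entered the test through the rMSA libraries. The leukocyte markers Ptprc, Lyz2 and Laptm5 stayed under 1 TPM in both groups. Of the leukocyte markers that passed the filter, Cd68 rose, whereas Csf1r fell from 2.80 ± 0.166 to 0.377 ± 0.0351 TPM. The part of other cells in the rises of Mrc1, Mcpt8 and Pilra was not tested. In bulk RNA, more cells of a type and more RNA per cell cannot be told apart. Pilrb1 and Pilrb2, at 2.65 and 2.61, are neighbours of Pilra on chromosome 5 from the same receptor family, and reads may be shared among them.

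Genes linked to albumin uptake moved singly. Cav1, the caveolin of caveolae, was at 158, 153 and 144 TPM with vehicle and at 159, 159 and 137 TPM with rMSA (log2 fold change −0.00, SE 0.07, limma adjusted p = 0.993), and Src, a kinase that phosphorylates it, was at 46.0 ± 2.79 and 48.4 ± 5.69 TPM (0.07, limma adjusted p = 0.656). Of the coat proteins of caveolae, Cavin1 fell from 109 ± 5.84 to 85.8 ± 8.09 TPM and Cavin2 rose from 25.4 ± 3.89 to 42.6 ± 5.18 TPM. Stab1, a scavenger receptor, rose from 0.400 ± 0.0200 to 1.71 ± 0.0850 TPM and the chaperone calreticulin (Calr) from 487 ± 8.71 to 695 ± 41.2 TPM. Of the 17 genes of this list 8 rose and 2 fell (median 0.27; 6 and 3 after quantile normalization).

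Sprr1a, a cornified envelope protein of stressed epithelia, was at 2.59, 2.89 and 3.75 TPM with vehicle and at 31.9, 30.0 and 29.6 TPM with rMSA (log2 fold change 2.96, SE 0.12). S100a8, a subunit of calprotectin, rose from 16.5 ± 0.909 to 64.3 ± 7.85 TPM, and 14 of 23 S100, small proline-rich, keratin and mucin genes rose and 2 fell (median 0.28; 8 and 1 after median centring, 9 and 2 without the 50 highest genes). Itga2, a collagen receptor subunit, was at 12.5, 10.7 and 8.79 TPM with vehicle and at 62.2, 54.1 and 40.1 TPM with rMSA (2.18, SE 0.16). Fibronectin (Fn1) rose from 8.14 ± 0.894 to 26.6 ± 4.64 TPM, and Vcam1, an adhesion molecule for leukocytes, fell by 0.97 on the log2 scale. In the list of 30 collagens, integrins and matrix proteins 16 rose and 2 fell (median 0.23), and in that of 19 matrix proteases and their inhibitors 10 rose and 1 fell (median 0.29). The retinal dehydrogenase Aldh1a1, chosen after its values were seen, rose from a mean of 20.7 to 95.3 TPM (2.15, SE 0.08).

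Outside the lists, the largest falls included the trypsin gene Try5 (17.0, 19.7 and 17.5 TPM with vehicle and 2.55, 4.29 and 3.04 TPM with rMSA, log2 fold change −2.17) and the sphingosine-1-phosphate exporter Spns2 (182, 175 and 164 TPM with vehicle and 69.0, 58.6 and 64.2 TPM with rMSA, −1.43). Their limma adjusted p were 1.34e-05 and 2.03e-06. The secreted signal Wnt4 fell from 5.76 ± 0.391 to 1.43 ± 0.130 TPM and the corepressor Tle3 from 7.46 ± 0.524 to 1.90 ± 0.425 TPM. Foxj1, the master factor of motile cilia, fell by 1.68 on the log2 scale, and of the 5 genes of ciliated epithelium tested 1 rose and 2 fell.

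Of 39 cell cycle and DNA replication genes 14 rose and 1 fell (median 0.20; 23 and 3 with the replicate term), with the thymidine kinase Tk1 rising from 5.02 ± 0.547 to 12.3 ± 1.57 TPM and Cdk4 falling from 834 ± 14.9 to 662 ± 4.66 TPM. Of 25 apoptosis regulators 8 rose and 2 fell (16 and 3), including the survival factor Bcl2l1, which rose from 191 ± 1.04 to 249.9 ± 12.3 TPM. Of 22 hypoxia-inducible genes 7 rose and 2 fell (11 and 3, and 7 and 5 after quantile normalization), and of 19 glucocorticoid receptor genes and targets 7 rose and 2 fell (10 and 5). None of the 77 cytosolic ribosomal protein genes rose and 47 fell, with a median log2 fold change of −0.23 that lay between −0.29 and −0.11 under the other scalings, and after removal of the length trend, where 15 to 67 fell. Rpl3 was at 2999, 3074 and 3107 TPM with vehicle and at 2226, 2279 and 2237 TPM with rMSA. The translation factor Eef1a1, the most abundant mRNA, fell from 21089.7 ± 1120.1 to 17109 ± 1223 TPM (−0.30, limma adjusted p = 0.0153), a call lost after median centring, after quantile normalization, with no filter, in the fit of all 12 libraries, and without vehicle library 1 or 2 or rMSA library 2.

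**Figure D4:**
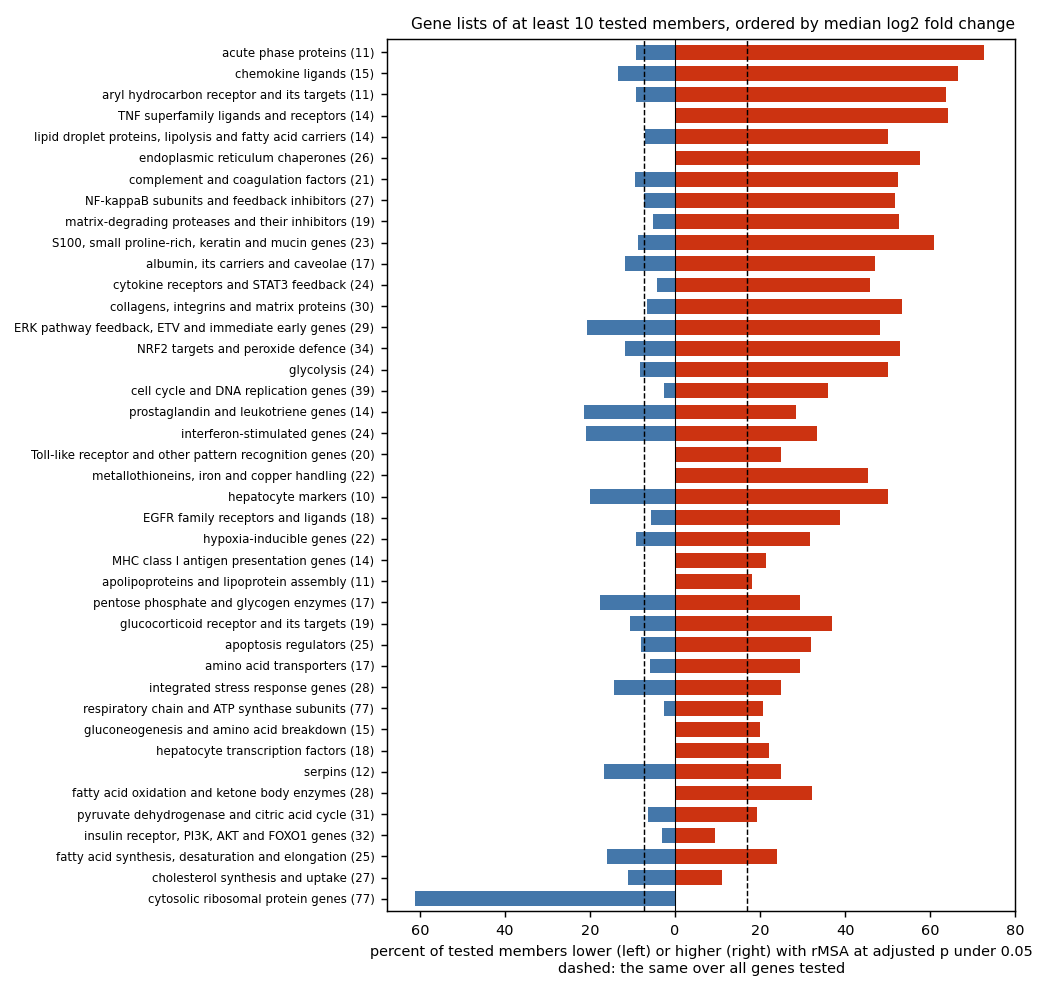
Percent of the tested members (number in brackets) of each list of at least 10 tested genes that were higher (red, right) or lower (blue, left) with rMSA at an adjusted p under 0.05, ordered by the median log2 fold change of the list. Dashed lines mark the percent over all genes tested (16.9% higher, 7.37% lower), which acute phase proteins (8 of 11 higher) and chemokine ligands (10 of 15 higher) exceed at the top and insulin receptor, PI3K, AKT and FOXO1 genes (3 of 32 higher) stay under.

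Whether the effect depended on insulin was tested by the difference between the rMSA effect without insulin and that with 10 nM insulin, in all 12 AML12 libraries. At an adjusted p under 0.05 there were 4 such genes (0.0367% of those tested), all with a more positive effect in the presence of insulin. Of the 10885 genes tested, 694 had an unadjusted limma p under 0.05. With no difference in any gene, a share of 0.05 would be under that threshold. Ier3, an early response gene that limits cell death, was at 155, 164 and 169 TPM with vehicle and at 524, 533 and 523 TPM with rMSA, against 151, 154 and 154 TPM with insulin and 795, 791 and 794 TPM with rMSA + insulin. Gdf15, a stress-induced cytokine, was at 27.3, 26.8 and 25.3 TPM with vehicle and at 17.8, 21.0 and 18.1 TPM with rMSA, against 27.8, 24.1 and 23.3 TPM with insulin and 42.9, 42.1 and 43.5 TPM with rMSA + insulin. Ier3 thus rose in both settings and further with insulin, whereas Gdf15 was lower with rMSA alone and higher with rMSA + insulin. Atf3 was at 25.6, 35.1 and 41.8 TPM with insulin and at 46.3, 57.3 and 54.7 TPM with rMSA + insulin, so that its fall without insulin stood beside a rise with insulin. Itgb7, an integrin subunit, was at 1.79, 1.92 and 1.87 TPM with vehicle, 6.21, 6.72 and 5.25 TPM with rMSA, 1.71, 3.02 and 2.67 TPM with insulin and 22.8, 28.9 and 27.9 TPM with rMSA + insulin. The differences in log2 fold change were −0.68 for Ier3, −1.21 for Gdf15, −1.71 for Atf3 and −1.70 for Itgb7 (limma adjusted p = 0.0215, 0.0215, 0.0473 and 0.0473). With the replicate number as a term the adjusted p of each was 0.0515 and 0 genes passed. Insulin libraries 1 and 2 held more ribosomal protein mRNA (33.5% and 36.2% of TPM) than insulin library 3 (26.8%), and without them the 4 genes had adjusted p of 0.0184 to 0.0289. Under each of the 3 other scalings 0 genes passed, and likewise 0 without any 1 vehicle, rMSA or rMSA + insulin library. Of the genes called without insulin, 177 of 177 higher and 32 of 34 lower had the same sign with insulin, and 163 and 27 of them passed at an adjusted p under 0.05 there. The same shares over all genes were not computed, so these counts have no background here.

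**Figure D5:**
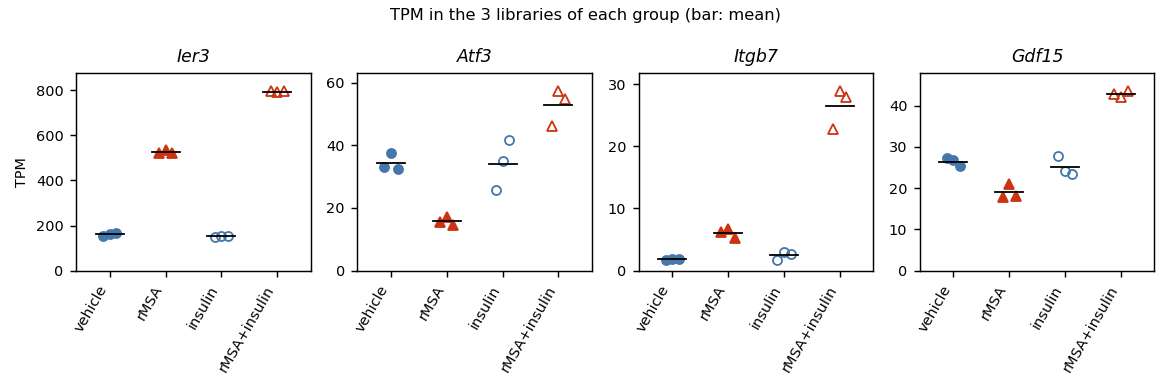
TPM of the 4 genes whose rMSA effect differed with insulin, in each of the 3 libraries of the vehicle, rMSA, insulin and rMSA+insulin groups, with a bar at the group mean and an axis from 0. Gdf15 and Atf3 lie below vehicle with rMSA alone and above insulin with rMSA + insulin, while Ier3 and Itgb7 lie higher with rMSA in both settings.

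Some of the called genes were neighbours. Of the 210 called genes with a RefSeq position, 37 lay in 17 runs with no more than 100 kb between called genes, and each of the 17 runs held genes called in 1 direction only. No background was computed for this count. Besides Cxcl5 and Cxcl3, Cxcl1 and Cxcl2, and the ligands Ereg and Areg on chromosome 5, the runs held Pilra with Pilrb1 and Pilrb2 on chromosome 5, Ifit3 and Ifit3b on chromosome 19, Serpina1b and Serpina1d on chromosome 12 and the small proline-rich genes with Sprr1a on chromosome 3. Several of these are families of near copies, and the part of shared reads in this was not tested. The members just inside the 1 TPM filter were Tgfb2 and Ppm1k and those just outside it were Gm8909 and Ercc6l, with means within 0.01 TPM of it.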

How the data were processed

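RNA of AML12 hepatocytes was sequenced on a BGISEQ platform. The authors deposited TPM values with 2 decimals. GRCm38 and the tools STAR 2.5.2b, Subread 1.6.0 (featureCounts) and Trimmomatic 0.33 stand in the submitters' processing notes, and for annotation and strand setting: not given in the sources used here. The study tested counts with DESeq2, which TPM does not allow. Here the genes averaging 1 TPM or more in the 6 libraries were tested with limma 3.58.1 (R 4.3.3) on log2(TPM + 1) with a mean-variance trend. Fold changes on this scale understate changes of rare genes.

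The named genes are the 15 largest rises and falls without overlap, the 10 highest mRNAs, genes of the study question, up to 5 members per list with the smallest adjusted p (or the 2 highest where none passes), cell type markers, and genes whose effect differed with insulin (5 per direction at most); others are said to be chosen after their values were seen. The 47 lists and the members were chosen with earlier results of these data known. Deviations of vehicle and rMSA libraries of the same number correlated at 0.53, 0.14 and 0.57, each over 0.1, so the number was taken to pair the libraries, although rMSA 2 correlated more with vehicle 1 (0.18). The labels do not state this pairing, and the main fit does not use it. The correlations come from the same libraries as the tests. Counts with the replicate term are therefore no separate support for the pairing or the calls. Positions and promoters come from RefSeq (GRCm38.p6; 15531 genes matched). Alternatives were other pseudocounts (0.1 and 5 TPM), filters, scalings, fits, the replicate number as a term, and leaving out each library; removing the trend with transcript length was added after the data were seen. The test was checked on simulated data. Liver libraries were not used, and a few genes of the rule are not reported here.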

Additional observations from a re-analysis of the deposited data

Results flagged for a closer look

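For 4 genes the rMSA effect without insulin differed from that with insulin by the test of the difference itself, in the limma fit of the 12 AML12 libraries. The log2 differences, without minus with insulin, were −0.68 for Ier3, −1.71 for Atf3, −1.70 for Itgb7 and −1.21 for Gdf15. In each of the 4 genes all 3 rMSA + insulin libraries were above all 3 rMSA libraries. The genes were picked by the difference in these same libraries, so this order is no separate support. With the replicate number as a term, under each of the 3 other scalings, and without any 1 vehicle, rMSA or rMSA + insulin library, 0 genes passed.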

How the results depend on the processing

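Depth is unknown and TPM is a share, so calls of small changes depend on the scaling. The 177 genes called higher were 76 with 5 TPM added, 112 with a filter at 5 TPM, 1837 with no fold threshold and 162 to 192 without 1 library. The 34 called lower were 13 with 5 TPM added, 802 with no fold threshold and 33 to 40 without 1 library. The 4 genes that differed with insulin were 2 with 0.1 TPM added, 8 with 5 TPM added, 2 with no filter, 3916 when array weights were used, 2 in a robust fit, 0 after each of the 3 other scalings, and 7 without insulin libraries 1 and 2. The number was 0 to 333 without 1 library (333 without insulin library 3, 21 without insulin library 2). The cause was not tested.

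With the replicate number as a block, for the assumed pairing, 178 genes were called higher and 35 lower, and the genes that differed with insulin were 0. At the adjusted p alone, 3606 rose and 1718 fell with the block. Akt1, Apoa1, Ftl1, Hnf4a, Irs2, Rpl23a and Tpt1 passed in the block fit and not in the fit without it, and the block changed no other call of the genes named in the text. In the fit of all 12 libraries 642 rose and 204 fell, and 1082 and 405 without vehicle library 2, 1102 and 433 without rMSA library 2. Without rMSA library 3, 2803 rose, and 513 and 529 fell without vehicle libraries 1 and 3. With the length trend removed, 2026 rose and 1830 fell. No called value changed sign under these alternatives.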
